A study of Mus musculus with 7 samples.

Results

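The genes described here are 34 genes of cartilage and bone: matrix and secreted proteins of cartilage, transcription factors of the skeletal lineages, proteins of bone matrix and mineralization, enzymes of bone resorption, and the receptor for parathyroid hormone. A member counted where at least 1 probe set was annotated to that gene alone, and the probe set with the highest mean over the 7 arrays stood for it. By that rule 30 of the 34 were measured, out of 18193 genes in all. Runx2, Bglap, Bglap2 and Spp1 had no such probe set in the annotation used here and are named only.

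The study measured RNA on 1-colour Affymetrix mouse 430 2.0 arrays, in bladders of male FVB/N mice carrying the SMGA/EGFP transgene, in which the promoter of the smooth muscle gamma-actin gene, Actg2, drives a green fluorescent protein. There were 3 adult bladders (Theiler stage 28) and 3 bladders of postnatal day 1 (Theiler stage 27), each unpooled, dissected as the entire bladder and put on an array of its own. The 7th array was a standard made from whole wild-type FVB/N newborns of postnatal day 1, a pool of 4 males and 4 females (Theiler stage 27). Its title names bladders while its source and protocol name whole animals, and it is treated as whole newborn here. All 7 samples were total RNA that went through 2 rounds of amplification. The transgene marks smooth muscle but no cells were sorted, so each bladder array held every cell type of the dissected organ, and fewer cells of a type cannot be told apart from less RNA per cell. Adult bladders were kept in liquid nitrogen and postnatal day 1 bladders in a freezer, so age and storage cannot be told apart. The whole newborn array had no replicate and differed from the bladders in genotype and sex as well as tissue.

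Cartilage is a gel of type II collagen and aggrecan, a large sulphated proteoglycan, held together by link proteins, matrilins and other small matrix proteins and laid down by chondrocytes under the transcription factors SOX9, SOX5 and SOX6. Bone is type I collagen mineralized with calcium phosphate, laid down by osteoblasts that depend on RUNX2 and osterix, kept by osteocytes embedded in it, and dissolved by osteoclasts, which secrete acid and proteases. The bladder wall contains neither tissue in health. Several of these genes also have roles in smooth muscle, connective tissue or macrophages.

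The labelled tissue was checked first. All 8 smooth muscle markers (Actg2, Acta2, Myh11 and others) and all 8 urothelial markers (uroplakins, Krt5 and others) were above the array median in every bladder array. Markers of neutrophils and marrow had a mean log2 level of 6.65 to 7.48 in the bladders and 11.62 in the newborn, and 0 of 8 were above the median in all 3 arrays of either age. Markers of skeletal muscle, a tissue next to the skeleton and not part of the bladder wall, had means of 8.17 to 8.32 in adult bladders, 11.34 to 12.45 in postnatal day 1 bladders and 15.05 in the newborn. Markers of male accessory glands had means of 9.80 and 9.65 in adult replicates 1 and 3 and 6.22 to 6.42 in the other 4 bladder arrays. Array medians were 209 to 312 in the bladders and 434 in the newborn, and the hybridization spike-in signal was highest in adult replicate 2, at 2.33 times the lowest array. The ratio of 3′ to 5′ control signal for Actb was 3.84 to 5.15 in adults, 1.85 to 3.70 at postnatal day 1 and 3.09 in the newborn. For Gapdh it was 15.3 to 19.6, 19.1 to 30.9 and 21.4. The Actb ratio thus separated the ages while the Gapdh ranges overlapped, and the part of RNA quality in the differences was not tested.

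The bases just before the transcription start are shown for 4 members, those with the lowest adjusted p in adult bladder against whole newborn among members with 1 promoter in the table used. They encode a bone matrix protein (Ibsp), a collagenase (Mmp13), a protein of growth cartilage (Ucma) and a cartilage matrilin (Matn1). Each is the 150 bases before the start, from RefSeq (GRCm38.p6), read 5′ to 3′ on the gene's own strand, which is the plus strand for all 4. The windows are chr5:104299137-104299286 for Ibsp, chr9:7272364-7272513 for Mmp13, chr2:4975972-4976121 for Ucma and chr4:130944235-130944384 for Matn1. Capitals mark TGTGGT, the core letters bound by RUNX factors, and TATAAA, the letters of a TATA box, on either strand, so that the first also reads as ACCACA and the other as TTTATA.
Ibsp: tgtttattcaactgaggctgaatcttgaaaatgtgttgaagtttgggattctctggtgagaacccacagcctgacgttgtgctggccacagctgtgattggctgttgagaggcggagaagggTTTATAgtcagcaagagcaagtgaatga
Mmp13: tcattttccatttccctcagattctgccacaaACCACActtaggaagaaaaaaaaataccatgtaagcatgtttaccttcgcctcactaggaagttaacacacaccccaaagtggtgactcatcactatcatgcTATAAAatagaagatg
Ucma: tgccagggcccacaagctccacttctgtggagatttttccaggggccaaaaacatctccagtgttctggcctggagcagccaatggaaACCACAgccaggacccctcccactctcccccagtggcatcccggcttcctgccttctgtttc
Matn1: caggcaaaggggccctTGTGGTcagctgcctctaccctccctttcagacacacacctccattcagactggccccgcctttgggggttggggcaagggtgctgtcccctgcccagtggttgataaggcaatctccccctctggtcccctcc
The TATA letters began 28 bases before the start of Ibsp, on the opposite strand, and 16 bases before the start of Mmp13. The RUNX letters began 118 bases before the start of Mmp13, 62 before that of Ucma and 134 before that of Matn1. Promoters were found for 24 of the 34 listed genes, in 38 entries, of which 9 (23.7%) held the RUNX letters in this window and 4 (10.5%) the TATA letters. Among all 32851 promoters the shares were 8.40% and 7.57%. The letters bound by SOX factors, ACAAT on either strand, were in 6 of the 38 entries (15.8%) and in 17.4% of all promoters. These matches describe the sequence and say nothing of binding.

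The data divided the members by level. Detection calls were not used here, so a member was called expressed at an age where its probe set lay above the array median of all probe sets in all 3 arrays. By that measure 9 of 30 members (30%) were expressed in postnatal day 1 bladder and 11 (36.7%) in adult bladder, against 58.8% and 57.6% of all genes. The 8 expressed at both ages were Matn2, Mgp, Sox5, Sox6, Trps1, Acp5, Ctsk and Pth1r. These calls rest on the probe set that stood for each gene. The other Sox5 probe sets did not pass the median in all 3 adult arrays. The other Sox6 probe sets stood below it in postnatal day 1 replicate 2, at the 40.0th, 29.6th and 25.5th percentile. Sox9 was expressed at postnatal day 1 only, and Cytl1, Alpl and Mmp9 in adult bladder only, by this threshold. At the other end, 11 members were above the median in no bladder array: Acan, Comp, Matn1, Cnmd, Chad, Ucma, Snorc, Ibsp, Dmp1, Mepe and Mmp13. The 7 others (Matn3, Matn4, Hapln1, Epyc, Sp7, Dlx5 and Phex) passed the median in some arrays and not in all 3 of an age. In the whole newborn 27 of the 30 were above the median, beside 11686 of all 18193 genes. The exceptions were Chad, Cytl1 and Mepe. The bladder counts depend on the threshold. At the 70th percentile they were 4 and 5 (13.3% and 16.7%), beside 40.4% and 39.8% of all genes. At the 30th percentile they were 17 and 16 (56.7% and 53.3%), beside 72.5% and 70.8% of all genes.

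**Figure D1:**
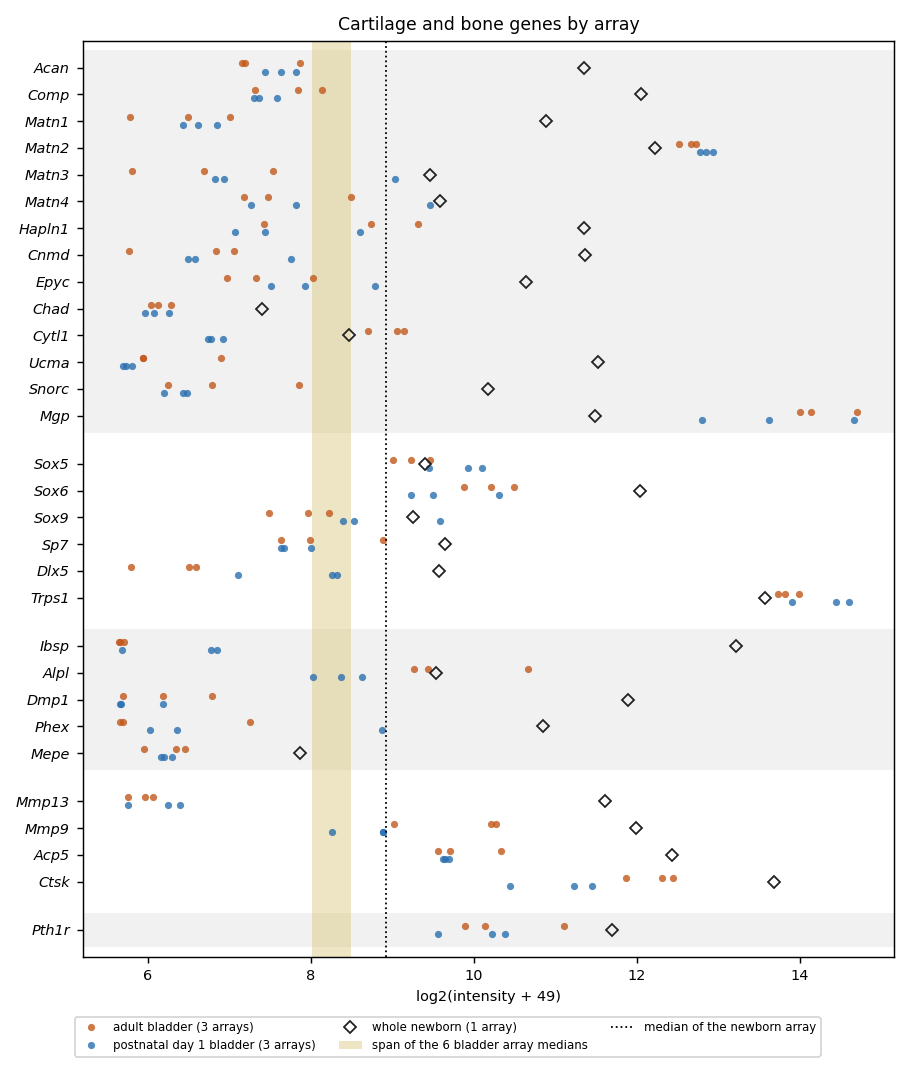
Level of each of the 30 measured members, as log2(intensity + 49), in every array: orange points are the 3 adult bladders, blue points the 3 postnatal day 1 bladders and open diamonds the single whole newborn array; shaded blocks separate the roles. The yellow band spans the medians of the 6 bladder arrays and the dotted line is the newborn median; the 11 members above the median in no bladder array lie within or left of the band, while 27 diamonds lie right of the dotted line.

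Against the whole newborn array, 16 of the 30 members were called lower in postnatal day 1 bladder and 0 were called higher, where called means a limma test with a Benjamini-Hochberg adjusted p under 0.05. Over all genes 5.47% were called lower and 2.15% higher in that comparison. At an unadjusted p under 0.05, 22 members were lower and 1, Mgp, was higher, with no count over all genes made at that threshold. In adult bladder 15 members were called lower and 1 higher, beside 7.39% and 3.86% of all genes. The median member difference was -2.46 log2 units at postnatal day 1 and -2.36 in adults, against medians of -0.09 and -0.15 over all genes. Both comparisons use the same newborn array, so they are not independent of each other. Of the called members, 12 were lower at both ages: Acan, Comp, Matn1, Cnmd, Chad, Ucma, Snorc, Ibsp, Dmp1, Mepe, Mmp13 and Acp5. Another 4 passed only at postnatal day 1 (Hapln1, Sox6, Mmp9 and Ctsk) and 3 only in adults (Epyc, Dlx5 and Phex), and the difference between the ages for these 7 did not pass the test. Under at least 1 alternative Hapln1, Sox6, Mmp9 and Ctsk passed in adults too, and Epyc and Phex at postnatal day 1. The arrays carry a common trimmed mean but unequal medians: with medians equalized, the median over all genes moved to 0.59 and 0.52, the calls over all genes became 603 lower and 815 higher at postnatal day 1 (995 and 392 without) and 836 lower and 1400 higher in adults (1345 and 703 without), and the members called lower numbered 10 and 12. The calls lost by that scaling were those of Hapln1, Chad, Mepe, Sox6, Mmp9 and Ctsk at postnatal day 1 and of Chad, Mepe and Epyc in adults.

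**Figure D2:**
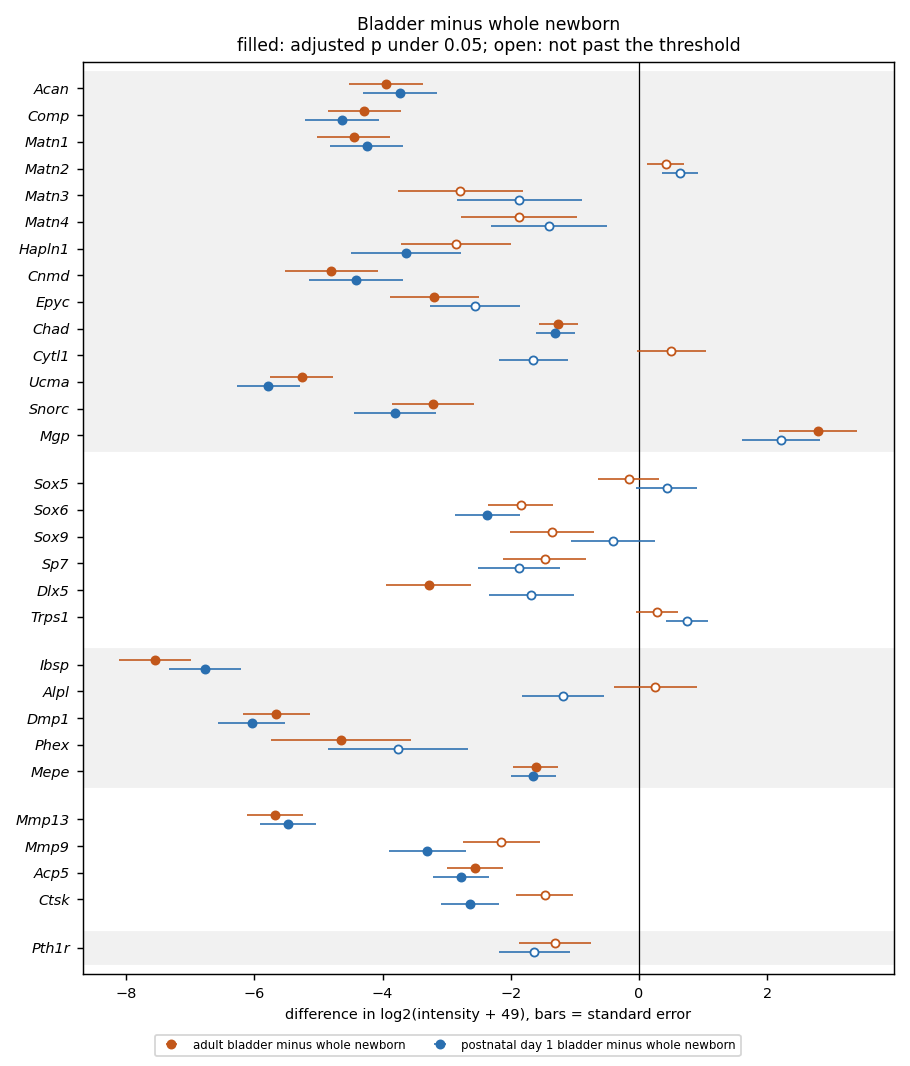
Difference of each member from the single whole newborn array, in log2(intensity + 49), for adult bladder (orange) and postnatal day 1 bladder (blue); bars are the standard error of the fit and filled points passed an adjusted p of 0.05. Most members lie left of 0, from -7.54 for Ibsp in adults, and Mgp lies right of it at both ages (2.79 and 2.21).

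Among the 14 cartilage matrix and cartilage-secreted proteins, 8 were called lower at each age. Aggrecan (Acan), the proteoglycan that gives cartilage its resistance to compression, measured 125, 149 and 177 in the postnatal day 1 bladders, 185, 97.2 and 93.9 in the adult bladders and 2567 in the newborn. The 6 bladder values all lay far below the newborn value and the ages overlapped. Its difference was -3.72 log2 units (SE 0.58, adjusted p = 0.00754) at postnatal day 1 and -3.95 (SE 0.58, adjusted p = 0.00461) in adults. COMP, which binds collagens in cartilage and tendon, measured 143, 115 and 109 at postnatal day 1, 181, 232 and 111 in adults and 4190.4 in the newborn. Its bladder mean was 2.92% of the newborn value at postnatal day 1 and 4.17% in adults. Matrilin 1 (Matn1), a filament protein of cartilage, measured 66.7, 37.4 and 49.3 at postnatal day 1, 6.05, 79.4 and 41.3 in adults and 1836 in the newborn. All of these are low positions in the bladder arrays, below the 47th percentile for Acan and Comp and below the 25th for Matn1.

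The small secreted proteins of cartilage followed the same order. Ucma, secreted by chondrocytes of growth cartilage, measured 4.33, 6.76 and 2.67 at postnatal day 1, 12.7, 69.95 and 12.3 in adults and 2895 in the newborn. Its difference was -5.78 (SE 0.48, adjusted p = 0.000473) and -5.26 (SE 0.48, adjusted p = 0.000577). Its second probe set differed by -3.19 and -2.60, and with that probe set, which has the higher mean in the bladders, the adult call was lost (adjusted p = 0.0555). Chondromodulin (Cnmd), which keeps cartilage free of vessels, measured 168, 40.8 and 46.6 at postnatal day 1, 84.2, 5.72 and 65.5 in adults and 2573 in the newborn. Snorc, a membrane proteoglycan of chondrocytes, measured 24.5, 37.1 and 40.1 at postnatal day 1, 26.8, 61.7 and 183 in adults and 1108 in the newborn. For all 3 genes no bladder array reached its array median. Link protein (Hapln1), which ties aggrecan to hyaluronan, varied more: 85.9, 125 and 341 at postnatal day 1, 379, 123 and 589 in adults, and 2553 in the newborn. It passed at postnatal day 1 (-3.64, SE 0.86, adjusted p = 0.0459) and not in adults (-2.85, SE 0.86, adjusted p = 0.0857). The postnatal day 1 call was lost without adult replicate 1 (adjusted p = 0.0822), adult replicate 3 (0.0611), postnatal day 1 replicate 1 (0.0978) or postnatal day 1 replicate 2 (0.109). Its 3 other probe sets were also below the newborn at both ages, with differences of -4.41 to -2.81 at postnatal day 1 and of -4.6001 to -3.63 in adults. With the mean of the probe sets the adult difference passed as well (-3.76, adjusted p = 0.00168), so no contrast between the ages is read from these calls.

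Epiphycan (Epyc), a small leucine-rich proteoglycan of growth cartilage, measured 195, 392 and 134 at postnatal day 1, 212, 76.2 and 111 in adults and 1539 in the newborn. It passed in adults (-3.19, SE 0.70, adjusted p = 0.0279), though not without adult replicate 3 (adjusted p = 0.0821), and not at postnatal day 1 (adjusted p = 0.0763). Snorc likewise lost its adult call without adult replicate 1 (adjusted p = 0.0528). Chondroadherin (Chad), a cartilage protein that binds cells, was called lower at both ages, but its newborn signal was itself low, 121, at the 23.8th percentile of that array. Its bladder values were 27.9, 18.3 and 13.3 at postnatal day 1 and 20.6, 28.8 and 16.7 in adults. The Chad calls were lost with most single arrays left out: the postnatal day 1 call held only when adult replicate 2 was left out (adjusted p of 0.0636 to 0.106 without any of the other 5) and the adult call failed without adult replicate 1 or 3 (0.0954 and 0.11) or any postnatal day 1 array (0.0537 to 0.0662). With medians equalized the Chad differences were -0.62 and -0.59 (adjusted p = 0.33 and 0.358), and with quantile normalization -0.70 and -0.67, with neither call kept. Matn3 and Matn4, matrilins of cartilage and of wider tissues, ran from 6.98 to 476 and from 96.2 to 659 over the bladder arrays, with 656 and 720.5 in the newborn, and neither passed at either age with the probe set used. Postnatal day 1 replicate 2 was the high array for Matn3, where its second probe set read 14.0, and postnatal day 1 replicate 1 for Matn4. That second Matn3 probe set differed from the newborn by -3.57 and -3.46, and with the mean of both Matn3 passed at each age (adjusted p = 0.0175 and 0.00747).

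The remaining 3 of the cartilage group, Matn2, Mgp and Cytl1, were expressed in bladder, Cytl1 in adults only. Matrilin 2 (Matn2), the matrilin of loose connective tissue, muscle and skin, measured 7326, 7786 and 6965 at postnatal day 1, 6417, 6705 and 5809 in adults and 4719.8 in the newborn. The probe set used stood above the 90th percentile in all 7 arrays, and all 6 of its bladder values were above the newborn value. The second Matn2 probe set read 3063, 2019 and 3750 at postnatal day 1, 3344, 2266 and 2747 in adults and 2410 in the newborn. Its values thus lay on both sides of the newborn value at each age, with differences of 0.24 and 0.19. The difference was 0.63 (SE 0.28, adjusted p = 0.255) and 0.41 (SE 0.28, adjusted p = 0.442), within the error of a comparison with 1 array.

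Matrix Gla protein (Mgp), a secreted inhibitor of calcification made by chondrocytes and by vascular smooth muscle, was the only member called higher than in the newborn. It measured 16384, 26631 and 17886 in adult bladders, 25771, 7094 and 12549 at postnatal day 1 and 2817 in the newborn. Every bladder array was above the newborn value, and the ages overlapped. The difference was 2.79 log2 units (SE 0.61, adjusted p = 0.0278) in adults, where the mean was 721% of the newborn value, and 2.21 (SE 0.61, adjusted p = 0.079) at postnatal day 1, where it was 537%. The adult call did not hold without adult replicate 1 (adjusted p = 0.0613), 2 (0.0526) or 3 (0.0667), while without postnatal day 1 replicate 2, the lowest bladder array for Mgp, the postnatal day 1 difference passed (adjusted p = 0.0338).

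Cytl1, a cytokine-like protein of cartilage, was the only member called between the ages. It measured 482, 517 and 368 in adult bladders, 72.1, 60.6 and 58.0 at postnatal day 1 and 304 in the newborn. The adult values did not overlap those of postnatal day 1, and the newborn value lay between the groups. Adult bladder was 2.15 log2 units higher (SE 0.39, 95% interval 1.28 to 3.03, adjusted p = 0.0256), with 456 ± 78.0 (SD, n = 3) against 63.6 ± 7.49 (SD, n = 3). In the adult arrays its probe set stood at the 57.4th to 61.8th percentile and in the postnatal day 1 arrays at the 21.8th to 27.2nd. The difference stayed between 2.07 and 2.29 when any 1 array was left out, but the adjusted p passed only without adult replicate 2 (0.047). It was 0.103 without adult replicate 1, 0.0944 without adult replicate 3, and 0.0751, 0.0826 and 0.0688 without postnatal day 1 replicates 1, 2 and 3. Cytl1 has 1 probe set. The accessory gland markers were high in adult replicates 1 and 3 and had a mean of 6.39 in adult replicate 2. Cytl1 was highest in adult replicate 2 by intensity and in adult replicate 1 by percentile (61.8 against 59.3 in replicate 2). The part of accessory gland tissue in the Cytl1 values was not tested.

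**Figure D3:**
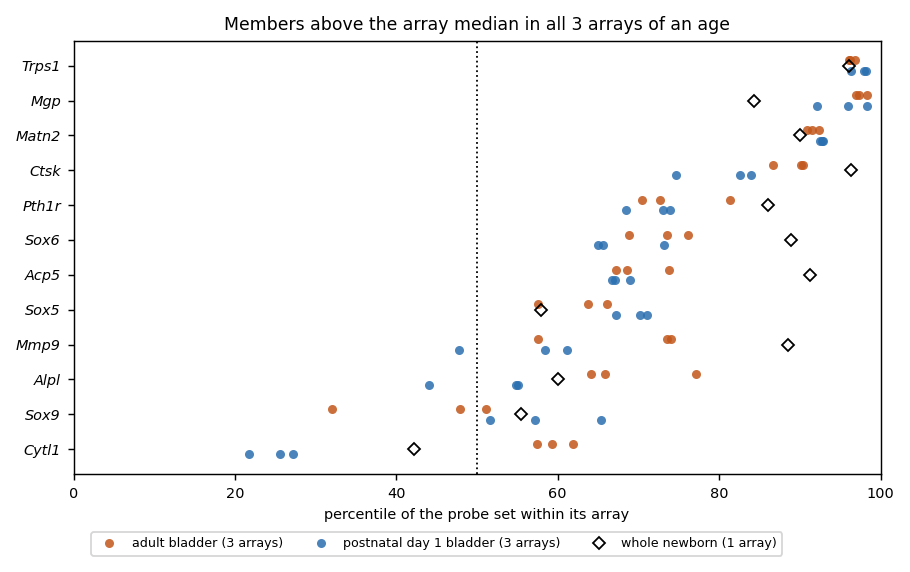
Position of the 12 members expressed at either age, as the percentile of the probe set within its array, for 3 adult bladders (orange), 3 postnatal day 1 bladders (blue) and the whole newborn (open diamond); the dotted line is the array median. Cytl1 is on opposite sides of the median at the 2 ages, and the bladder points of Mgp, from 92.2 to 98.3, all lie right of its diamond at 84.4; percentiles of different probe sets do not rank the transcripts.

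Of the 6 measured transcription factors, 1 was called lower at each age. Sox6, a partner of SOX9 in cartilage that also acts in muscle and nerve, measured 676, 549.5 and 1214 at postnatal day 1, 1387, 896 and 1136 in adults and 4169 in the newborn. It was above the median in all 6 bladders and was still lower than in the newborn at postnatal day 1 (-2.37, SE 0.51, adjusted p = 0.0321), while the adult difference of -1.85 did not pass (SE 0.51, adjusted p = 0.0634). The postnatal day 1 call was lost without adult replicate 1 (adjusted p = 0.0586), adult replicate 3 (0.0678), or postnatal day 1 replicate 1 (0.0738) or 2 (0.0744), and the adult difference passed without postnatal day 1 replicate 3 (0.0419). Its 3 other probe sets were lower in bladder as well. Dlx5, a homeobox factor of osteoblasts, measured 47.3, 42.2 and 6.66 in adults, 269, 88.4 and 257 at postnatal day 1 and 714 in the newborn. The adult difference from the newborn was -3.28 (SE 0.66, adjusted p = 0.0199), lost without adult replicate 1 (adjusted p = 0.0501) or 3 (0.0696). At postnatal day 1 the Dlx5 difference was -1.68 (SE 0.66, adjusted p = 0.199). All 3 adult values lay below all 3 postnatal day 1 values, and that age difference of -1.59 (SE 0.45) did not pass (adjusted p = 0.11).

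Trps1, a GATA-type repressor that shapes growth cartilage and is also active in other organs, measured 24746, 15296 and 22113 at postnatal day 1, 16196, 13576 and 14335 in adults and 12119 in the newborn. Every bladder value exceeded the newborn value, and the differences of 0.74 (SE 0.33, adjusted p = 0.253) and 0.27 (SE 0.33, adjusted p = 0.679) did not pass. The 4 Trps1 probe sets disagreed in sign: differences from the newborn ran from -1.09 to 0.97 at postnatal day 1 and from -1.39 to 1.22 in adults. Sox5, which acts with SOX6, measured 924, 649 and 1048 at postnatal day 1, 551, 468 and 654 in adults and 625 in the newborn. Bladder and newborn values of Sox5 overlapped, with differences of 0.43 (SE 0.48, adjusted p = 0.68) and -0.16 (SE 0.48, adjusted p = 0.877). The adult sign turns to 0.50 with medians equalized, and at postnatal day 1 the 6 other Sox5 probe sets were on the other side of 0, from -0.85 to -0.10.

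Sox9, the master factor of chondrocytes, measured 288, 321 and 720.0 at postnatal day 1, 201, 130.1 and 248 in adults and 559 in the newborn. Every postnatal day 1 value was above every adult value, with an age difference of -0.95 that did not pass (SE 0.47, adjusted p = 0.363). Against the newborn neither age passed (adjusted p of 0.789 at postnatal day 1 and 0.268 in adults). Another Sox9 probe set was under 108 in all 7 arrays, the newborn included, and carried little signal in any sample. The remaining Sox9 probe set read 516 in the newborn and 177, 193 and 393 at postnatal day 1. It was above the array median at postnatal day 1 only in replicate 3 (42.3rd, 48.6th and 55.5th percentile). The expressed call for Sox9 thus rests on the probe set used. Osterix (Sp7), which commits cells to the osteoblast lineage, ran from 149.8 to 207 at postnatal day 1 and from 149.8 to 425 in adults, with 752 in the newborn, and passed at neither age.

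The bone matrix group contained the member with the largest difference. Ibsp, bone sialoprotein, a protein of mineralizing matrix, measured 60.7, 2.64 and 66.5 in postnatal day 1 bladders, 1.31, 3.18 and 1.65 in adult bladders and 9463 in the newborn. The differences were -6.78 (SE 0.56, adjusted p = 0.000447) and -7.54 (SE 0.56, adjusted p = 0.000265). All 3 adult arrays were below 4 and so at the floor of the scale, where 49 added to each value limits the difference. Its second probe set had a smaller difference, -2.96 and -2.47, from 848 in the newborn to 63.7 to 70.1 at postnatal day 1 and 91.3 to 147 in adults. The promoter of Ibsp is the one above with the TATA letters on the opposite strand.

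Dmp1, an osteocyte protein that controls mineralization and phosphate, measured 1.99, 1.75 and 24.1 at postnatal day 1, 61.3, 24.0 and 3.04 in adults and 3733 in the newborn. Its differences were -6.04 (SE 0.52, adjusted p = 0.000531) and -5.66 (SE 0.52, adjusted p = 0.000577). Ibsp, Dmp1 and Mmp13 were the 3 members called lower at both ages under every alternative run. These 3 passed the filters on level only through the newborn array, so the filter alternatives are no separate support for their calls. Phex, an osteocyte endopeptidase that restrains the phosphate hormone FGF23, measured 419, 33.2 and 16.1 at postnatal day 1, 1.35, 103 and 2.71 in adults and 1792 in the newborn. Postnatal day 1 replicate 1 stood apart at 419, and the second Phex probe set was high in the same array, at 215.5 against 13.4 and 3.17 in the others. That array also had the highest skeletal muscle marker mean of the bladders, 12.45, and the highest Matn4 value, while Matn3 and Epyc were highest in postnatal day 1 replicate 2 and Hapln1 in replicate 3 among the postnatal day 1 bladders. The part of such tissue in these values was not tested. Phex passed in adults (-4.65, SE 1.10, adjusted p = 0.0372) and not at postnatal day 1 (-3.76, SE 1.10, adjusted p = 0.093). The adult call was lost without adult replicate 1 or 3 (adjusted p = 0.104 for both) or postnatal day 1 replicate 2 (0.0532), and without postnatal day 1 replicate 1 the postnatal day 1 difference passed (0.0183).

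Mepe, another osteocyte phosphoprotein, was called lower at both ages, from a newborn signal of 185 that was itself at the 31.5th percentile. Its bladder values ran from 13.2 to 38.7, and the differences were -1.65 (SE 0.35, adjusted p = 0.03) and -1.61 (SE 0.35, adjusted p = 0.0261). The postnatal day 1 call was lost without postnatal day 1 replicate 1 (adjusted p = 0.0616), 2 (0.0823) or 3 (0.0605), and the adult call without adult replicate 3 (0.0813). Both were lost with medians equalized, at -0.97 and -0.95 (adjusted p = 0.191 and 0.189), and with quantile normalization, at -0.99 and -0.98. Tissue-nonspecific alkaline phosphatase (Alpl), which frees phosphate for mineralization and is made in many organs, was the exception in this group. It measured 565, 1569.5 and 645 in adults, 347, 282 and 212 at postnatal day 1 and 691 in the newborn. The adult values lay above all 3 postnatal day 1 values and on both sides of the newborn value. The age difference of 1.45 (SE 0.45, 95% interval 0.41 to 2.48) did not pass (adjusted p = 0.147), nor did the differences from the newborn of -1.19 (adjusted p = 0.353) and 0.26 (adjusted p = 0.856). The sign of the adult difference of Alpl turns to -0.18 without adult replicate 2, which held the highest value.

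All 4 enzymes of resorption and matrix breakdown were called lower than the newborn at postnatal day 1, and 2 of them in adults. Mmp13, a collagenase of hypertrophic cartilage and osteoblasts, was near the floor in bladder: 35.0, 27.3 and 5.22 at postnatal day 1, 18.1, 5.20 and 13.5 in adults, and 3072 in the newborn. Its differences were -5.47 (SE 0.43, adjusted p = 0.000391) and -5.68 (SE 0.43, adjusted p = 0.000276). Acp5, the tartrate-resistant acid phosphatase of osteoclasts and some macrophages, was both expressed in bladder and lower than in the newborn. It measured 752, 738 and 779.5 at postnatal day 1, 704, 1242 and 783 in adults and 5461 in the newborn. The differences were -2.77 (SE 0.44, adjusted p = 0.00824) and -2.56 (SE 0.44, adjusted p = 0.0095).

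Cathepsin K (Ctsk), the osteoclast protease that digests bone collagen and is also made by fibroblasts, measured 2737, 2352 and 1344 at postnatal day 1, 3671, 5034 and 5513 in adults and 13051 in the newborn. No adult value overlapped a postnatal day 1 value, and the age difference was 1.17 (SE 0.32, 95% interval 0.44 to 1.89, adjusted p = 0.101), which passed with the filter at the 70th percentile (0.0455). Against the newborn it passed at postnatal day 1 (-2.64, SE 0.45, adjusted p = 0.0113) and not in adults (-1.47, SE 0.45, adjusted p = 0.0871), where it passed without postnatal day 1 replicate 3 (0.0475). Mmp9, a gelatinase of osteoclasts, neutrophils and macrophages, measured 424, 424 and 258 at postnatal day 1, 1136, 471 and 1183 in adults and 3995 in the newborn. All adult values were above all postnatal day 1 values, and the age difference of 1.16 did not pass (SE 0.44, adjusted p = 0.226). It passed with array weights (adjusted p = 0.049) and when the mean of both Mmp9 probe sets was used (0.0403). Against the newborn Mmp9 passed at postnatal day 1 (-3.30, SE 0.60, adjusted p = 0.0155) and not in adults (-2.15, SE 0.60, adjusted p = 0.0662). Adult replicates 1 and 3 were the high ones for the Mmp9 probe set used, and its second probe set, at 473, 629 and 452 in adults, was not higher in those arrays. Macrophage markers had means of 10.43 to 11.14 in adult bladders, 9.71 to just under 10 at postnatal day 1 and 11.06 in the newborn, with 9 and 7 of 10 above the median in all 3 arrays of the adult and postnatal day 1 groups. The defining neutrophil genes were low in bladder, 7 of 8 being called lower than the newborn at each age, and the part of these cells in the Mmp9, Acp5 and Ctsk values was not tested. Fibroblast markers, all 7 above the median in every bladder array, had means of 12.87 to 13.78 in the bladders and 13.02 in the newborn.

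Pth1r, the receptor for parathyroid hormone and its related peptide, acts in growth cartilage, osteoblasts and kidney and relaxes smooth muscle. It measured 1145, 709 and 1281 at postnatal day 1, 898, 2155 and 1071 in adults and 3254 in the newborn. It was above the median in all 6 bladder arrays, at the 68.4th to 81.3rd percentile, and all 6 values were below the newborn value. The differences of -1.63 (SE 0.56, adjusted p = 0.143) and -1.31 (SE 0.56, adjusted p = 0.208) did not pass.

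For adult against postnatal day 1 bladder, fitted on the 6 bladder arrays alone, 1 of 30 members was called higher (Cytl1) and 0 lower, beside 1.75% and 2.39% of all genes. At an unadjusted p under 0.05 there were 4 higher (Cytl1, Alpl, Ctsk and Mmp9) and 2 lower (Dlx5 and Ibsp). The share of all genes at that unadjusted threshold was not counted, so nothing about the members as a group is read from these counts. Ibsp was above the median in no bladder array, and its second probe set had the other sign between the ages (0.49). The members split evenly in sign, 16 above and 14 below 0, with a median of 0.04 against -0.03 over all genes. The 95% intervals of the expressed members show what 3 arrays a group can tell apart. Matn2 lay between -0.67 and 0.23 and Sox5 between -1.35 and 0.16, whereas Mgp lay between -0.39 and 1.57 and Pth1r between -0.58 and 1.22. Replicates here are unpooled bladders, and the p-values set each age difference against the spread between bladders of the same age, as estimated by limma.

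**Figure D4:**
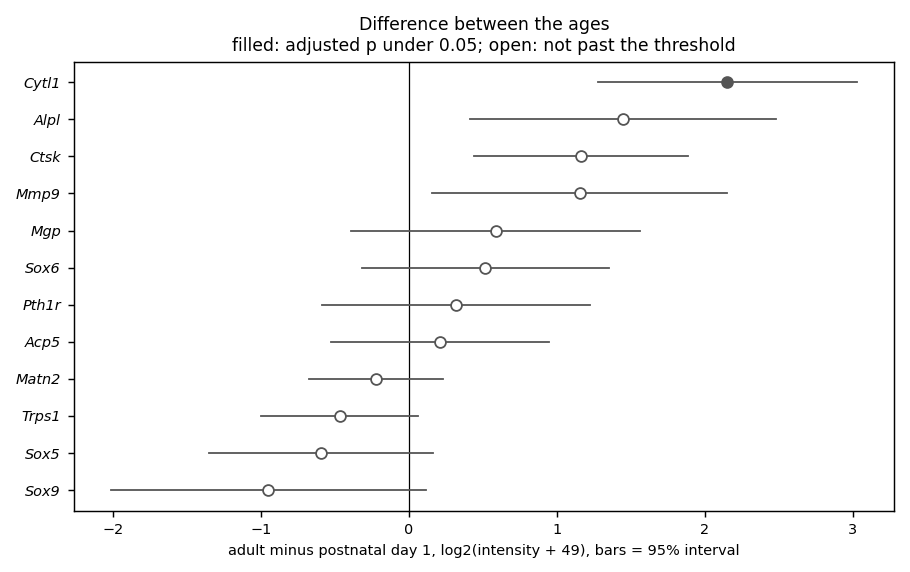
Adult minus postnatal day 1 bladder for the 12 members expressed at either age, in log2(intensity + 49), with 95% intervals from the fit to 6 arrays; the filled point passed an adjusted p of 0.05. Cytl1 is filled at 2.15; Alpl, Ctsk and Mmp9 have intervals above 0 that did not pass after adjustment over all probe sets.

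Other skeletal genes were read from the same fits. Of 57 measured, 15 were called lower and 1 higher at postnatal day 1, beside 5.47% and 2.15% of all genes. In adults 13 were called lower and 2 higher, beside 7.39% and 3.86% of all genes. Of 8 cartilage collagens, 7 were called lower at postnatal day 1 and 6 in adults, with median differences of -2.54 and -3.33. Col2a1, the main collagen of cartilage, measured 261, 49.9 and 48.8 at postnatal day 1, 16.2, 24.1 and 10.1 in adults and 7330.3 in the newborn. Its differences were -5.68 (SE 0.73, adjusted p = 0.003) and -6.81 (SE 0.73, adjusted p = 0.00109). Col9a1, which sits on the surface of those fibrils, had differences of -5.07 and -7.14. The highest bladder array was postnatal day 1 replicate 1 for Col2a1 and postnatal day 1 replicate 3 for Col9a1, at 631.

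The other lists were less uniform. Of 16 other cartilage genes, 3 were called lower at postnatal day 1 (Prg4, Papss2 and Scrg1) and 2 in adults (Papss2 and Scrg1). Lubricin (Prg4), the joint lubricant, was also the only one of the 57 called higher in adult than in postnatal day 1 bladder, at 437, 557 and 344 against 84.1, 85.2 and 97.1 (1.82, SE 0.39, adjusted p = 0.0489). Between the ages 1 of the 57 was called higher and 3 lower, beside 1.75% and 2.39% of all genes, so nothing about the list is read from these counts. Of 17 other osteoblast and osteocyte genes, Smpd3, a sphingomyelinase of mineralizing cartilage and bone, was called lower at both ages, Col1a1 was called lower in adults and Msx2, a homeobox factor of many organs, higher in adults (1.94, SE 0.48, adjusted p = 0.0434). Col1a1, the collagen of bone that fibroblasts also make, measured 38897, 31708 and 23319 at postnatal day 1, 5933, 11337 and 6921 in adults and 25305 in the newborn. It was lower in adult than in postnatal day 1 bladder (-1.98, SE 0.30, adjusted p = 0.0142), as were the stress-response factor Atf4 (-1.04) and the carbonic anhydrase Car2 (-1.23). These 3 calls and that of Prg4 were all lost on leaving out any one of 4 arrays (adult replicates 1 and 3, postnatal day 1 replicates 1 and 2), when 0 of the 57 were called between the ages. Of 16 other osteoclast genes, 4 were called lower at postnatal day 1 (Ocstamp, Dcstamp, Atp6v0d2 and Car2) and 3 in adults (Calcr, Ocstamp and Car2). Itgb3, an integrin of osteoclasts, platelets and vessels, went against its list at both ages. It measured 8878, 11183 and 7637 at postnatal day 1, 7211, 5353 and 6989 in adults and 1296 in the newborn, which is 2.77 and 2.28 log2 units higher (SE 0.34, adjusted p = 0.00246 and 0.00516).

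Measured by more than 1 probe set, 12 members could be compared within themselves. At postnatal day 1, all probe sets of 10 of the 12 lay on the same side of the newborn, the exceptions being Sox5 and Trps1. In adults the exceptions were Sox9 and Trps1. Between the ages only 5 of the 12 kept 1 sign over their probe sets. Where bladder signal was near the floor, the size of the difference followed the newborn signal of the probe set: for Dmp1 the newborn values were 3733, 1536 and 469, and the postnatal day 1 differences -6.04, -4.45 and -3.16.

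**Figure D5:**
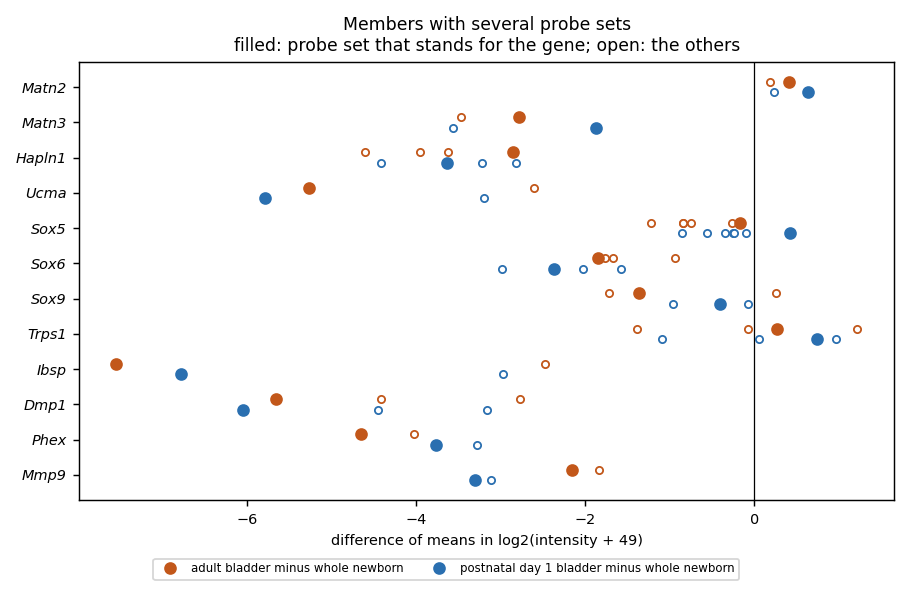
Difference of means from the whole newborn, in log2(intensity + 49), for every probe set of the 12 members that have several; filled points are the probe sets that stand for the gene and open points the others, orange for adult and blue for postnatal day 1 bladder. Hapln1, Ucma, Ibsp, Dmp1, Phex and Mmp9 lie left of 0 for every probe set, whereas the Trps1 points lie on both sides.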

How the data were processed

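The authors deposited 1 intensity per probe set and array, never negative and not on a log scale, made with GCOS per the submitters' processing notes. The GCOS version, the summary method and the target of its scaling are not stated in what was used here. A trimmed mean (2% cut at each end) lay between 1499.5 and 1499.6 on all 7 arrays, so they share a scaling. The tests ran on 45037 of 45101 probe sets, 64 being controls. The platform annotation gives a single gene to 34945 of them, more than 1 to 932 and none to 9160. Of 163 listed genes, 151 matched.

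From the deposited intensities, log2(intensity + 49) was computed, 49 being the 20th percentile of all values; differences of low genes are understated on this scale. limma 3.58.1 (R 4.3.3; lmFit, eBayes with a trend) was fitted to all 45037 probe sets with no filter on level, 2-sided, with Benjamini-Hochberg adjustment over all. Comparisons with the newborn used 7 arrays in 3 groups, so the single newborn array was assumed to vary like the bladders; the ages used the 6 bladder arrays. The number of arrays limits the precision. Shares over all genes use 1 probe set per gene. All measured members were named, and of each other list up to 4 genes by adjusted p and any that went against it. The members and lists were chosen with earlier results of these data known. Replicate numbers follow the order of the samples. The script was tested on simulated data. Alternatives were pseudocounts, scalings, filters, variance models, array weights, probe set rules, and arrays left out. Against the newborn, a filter kept a probe set above its threshold in at least 1 of the arrays compared, the newborn included.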

Additional observations from a re-analysis of the deposited data

Results flagged for a closer look

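Cytl1 differed between the ages: adult bladder was 2.15 log2 units above postnatal day 1 bladder (adjusted p = 0.0256 in limma), which is also the difference between the 2 ages' distances from the shared whole newborn array (0.50 in adults and -1.65 at postnatal day 1, neither past the threshold). All 3 adult arrays were higher than all 3 postnatal day 1 arrays. The call was lost on leaving out any 1 array other than adult replicate 2, with adjusted p of 0.0688 to 0.103 in limma. Age and storage cannot be told apart. Groups of 3 arrays were not tested for single arrays that stand apart.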

How the results depend on the processing

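Pseudocount 49 bounds the differences of genes near the floor, and 1 newborn array bounds every comparison with it. Of 16 members called at postnatal day 1 against the newborn, 9 kept the call in all alternatives that tested them, and of 16 in adults, 3. Snorc, among the 9, was not tested with the filter at the 70th percentile. Members called lower numbered 12 to 16 (postnatal day 1) and 10 to 16 (adult) with any 1 array left out, and members called higher 0 to 1 in each; between the ages 0 to 1 were called higher and 0 lower. With medians equalized, 10 were lower and 1 (Mgp) higher at postnatal day 1; the filter at the 70th percentile also gave 1 higher there. Without adult replicates 1 and 3, 4 were lower and 0 higher in adults and 0 higher between the ages, and without adult replicate 2 and postnatal day 1 replicate 3, 0 and 0 were higher; eBayes without a trend gave 0 higher in adults. Between the ages, array weights gave 2 higher (Cytl1, Mmp9) and 1 lower (Dlx5), and the mean of probe sets 2 higher (again Cytl1 and Mmp9). With the 70th percentile filter Ctsk passed and Cytl1 was not tested. At postnatal day 1 against the newborn that filter left 20 members and 31 related skeletal genes, so its counts there are out of fewer genes. Members expressed numbered 9 to 11 and 11 to 12 with an array left out, 4 and 5 at the 70th percentile and 17 at the 30th at postnatal day 1. Related skeletal genes called in either direction (16, 15 and 4), whose alternatives were added after seeing the data, as were those leaving out array pairs for the expressed members, numbered 10 to 20, 11 to 20 and 0 to 3 with 1 array left out. At postnatal day 1 they were 9 with pseudocount 10, 8 with medians equalized, 10 with the 70th percentile filter, 7 with only the compared groups in the fit and 7 without adult replicates 1 and 3. In adults they were 25 with array weights and 2 without adult replicates 1 and 3. Between the ages they were 2 with medians equalized, without a trend, or without adult replicate 2 and postnatal day 1 replicate 3, 8 with array weights and 0 without adult replicates 1 and 3. Among differences from the newborn and age differences of the expressed members, signs turned, with no call on either side, for adult Sox5 (0.50 with medians equalized, 0.37 with quantile normalization), Sox5 at postnatal day 1 (-0.27, mean of probe sets), Sox9 at postnatal day 1 (0.27 and 0.22 with medians equalized and quantile normalization), adult Alpl (-0.042 with array weights, -0.18 to 0.52 with 1 array left out, the lowest leaving out adult replicate 2, and -0.18 when postnatal day 1 replicate 3 was dropped too), and, between the ages, Acp5 (-0.025 without adult replicate 2 to 0.36 without adult replicate 1, and -0.0045 without adult replicate 2 and postnatal day 1 replicate 3) and Pth1r (-0.046 without adult replicate 2 to 0.56 without adult replicate 1). Age differences of Matn1, Matn4, Hapln1, Cnmd, Chad, Sp7, Ibsp, Phex and Mepe, not expressed at either age, also turned sign in some alternatives (to values between -0.28 and 0.49) and were never called. The causes were not tested. No paired analysis was possible because replicate numbers follow sample order and pair nothing.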
